A study of Mus musculus with 6 samples.

Results

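The genes described here are the G1 cyclins, their partner kinases CDK4 and CDK6, the INK4 inhibitors of those kinases and the retinoblastoma gene: Ccnd1, Ccnd2, Ccnd3, Cdk4, Cdk6, Cdkn2a, Cdkn2b, Cdkn2c, Cdkn2d and Rb1. They were chosen by symbol, and a probe set was taken as theirs when the array's annotation gave it exactly 1 symbol. All 10 genes, of 18193 on the array, had such a probe set, and together they had 25. Where a gene had several, the one with the highest mean over the 6 arrays leads and the others are given beside it. A filter at a mean log2 level of 4.97 left 8 of the 10 genes among 13090 tested. Cdkn2a and Cdkn2b lay below it.

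The samples were MVT1 cells, a mouse mammary tumour line that colonises the lung, tagged with green fluorescent protein (GFP), and 3000000 of them were given through a vein to FVB/N mice, the strain of every group. GFP-positive cells were sorted from lungs at 1 week from mice labelled vehicle controls, at 2 weeks from mice gavaged with vehicle, and at 2 weeks from mice gavaged daily with 160 mg per kg of GW2580, an inhibitor of the macrophage growth factor receptor CSF1R. Dosing began 1 week after injection. Each of the 3 groups has 2 arrays. The vehicle groups came from 2 mice each. The sources used here do not say how many mice stand behind the GW2580 arrays, so the spread of that pair may be only technical. The tests pool the spread of the 3 groups, so this limit bears on the p-values of every comparison. All cells are 1 tumour line, so the groups do not sample different tumours.

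D-type cyclins are made when growth factors act on a cell. They bind CDK4 or CDK6, and the active pair phosphorylates the retinoblastoma protein, which then releases E2F transcription factors that switch on genes for DNA replication. INK4 proteins bind CDK4 and CDK6 and keep them from the cyclins. Cyclin D1 and the kinases CDK4 and CDK6 are best known in the mammary gland for their part in epithelial growth and as drug targets in breast cancer.

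Sequence just upstream of the start was taken for 7 of the 10 genes from RefSeq (GRCm38.p6), as 250 bases before each annotated start, 10 windows in all. Ccnd1, Ccnd2 and Rb1 had none in that table. The windows of Cdkn2d and Cdkn2c are shown because these INK4 genes had the lower levels at 2 weeks described below, and the window of Cdk4 because of its repeated E-box, the letters CACGTG that MYC with its partner MAX is known to bind. Capitals mark the GC box in the first pair of sequences (GGGCGG on either strand, the letters bound by SP1) and the E-box in the Cdk4 sequence. All are written 5′ to 3′ on the strand of the gene.
Cdkn2d, chr9:21291210-21291459, minus strand: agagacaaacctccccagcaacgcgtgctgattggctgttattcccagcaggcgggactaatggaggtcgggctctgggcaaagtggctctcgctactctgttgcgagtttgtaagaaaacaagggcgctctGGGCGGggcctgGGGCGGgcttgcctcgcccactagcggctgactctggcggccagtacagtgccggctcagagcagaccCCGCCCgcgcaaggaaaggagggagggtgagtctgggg
Cdkn2c, chr4:109666757-109667006, minus strand: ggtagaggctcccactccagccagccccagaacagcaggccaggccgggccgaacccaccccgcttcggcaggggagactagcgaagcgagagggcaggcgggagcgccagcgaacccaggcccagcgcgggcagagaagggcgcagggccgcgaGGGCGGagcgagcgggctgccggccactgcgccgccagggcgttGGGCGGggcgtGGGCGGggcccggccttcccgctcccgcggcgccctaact
Cdk4, chr10:127063285-127063534, plus strand: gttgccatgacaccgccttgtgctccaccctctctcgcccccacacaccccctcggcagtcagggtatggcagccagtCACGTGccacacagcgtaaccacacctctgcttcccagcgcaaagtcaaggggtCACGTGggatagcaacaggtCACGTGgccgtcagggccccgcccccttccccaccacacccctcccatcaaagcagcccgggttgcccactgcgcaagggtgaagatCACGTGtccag

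In the Cdkn2d window the GC boxes begin 118, 106 and 38 bases before the start, and in the Cdkn2c window 95, 51 and 40 bases before it. GC boxes also stood in both Ccnd3 windows, that of Cdk4 and 1 of Cdkn2a, so that 6 of the 10 windows had 1 or more. A GC box was present in 32.74% of the 32851 windows of that length in the table, and the window of the other annotated Cdkn2c start had 0. The 4 E-boxes of Cdk4 begin 172, 118, 98 and 11 bases before its start. At least 1 E-box was found in 6.02% of windows and at least 4 in 7 windows, or 0.0213%. Cdk6 had 1 E-box, 220 bases before its start. An E2F motif, searched on both strands as TTTGGCGC, TTTGCCGC, TTTCGCGC or TTTCCCGC, was found in 1.86% of windows and in 1 of the 10 windows of these genes, that of Cdkn2a. The motifs share no letters with each other at these places, and a match describes the letters only.

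Levels below are RMA log2 expression values, on which a difference of 1 is a doubling, and they cannot be compared between probe sets. Tests are limma fits over all 6 arrays, errors of differences are standard errors (SE), and adjusted p-values are Benjamini-Hochberg values over the 13090 genes. Calls are genes with an adjusted p under 0.05. The time comparison (vehicle at 2 weeks against 1 week) and the inhibitor comparison (GW2580 against vehicle at 2 weeks) share the 2-week vehicle arrays, and the remaining comparison, of GW2580 with vehicle at 1 week, shares arrays with both. A low value in the 2-week vehicle arrays therefore enters once as a lower level with time and again as a higher level with the inhibitor. Permutation tests were not used, since 0.333 is the smallest two-sided p that groups of 2 allow.

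Some features of the arrays move with the groups. For Actb, the 3′ minus 5′ control difference was 1.20 on 2-week vehicle replicate 2 and at most 0.50 on the other 5 arrays, and for Gapdh 0.92 there and below 0 elsewhere. Such gaps are a known sign of shorter RNA or cDNA. The BioB 5′ hybridisation control read 10.03 on 1-week replicate 1 and 8.74 to 9.02 on the other 5 arrays. Of 9 mammary epithelial markers, 7 passed the filter at 4.97, the keratins Krt8 (13.52 to 13.82), Krt18 (12.93 to 13.44), Krt5 (mean 6.23) and, just above it, Krt14 (mean 5.01) among them, and Cdh1 (mean 3.67), which encodes E-cadherin, and Elf5 (mean 4.07) did not. Of 7 lists of cell type markers, the mean of 8 fibroblast and smooth muscle genes was 8.47 and 7.55 at 1 week, 7.19 and 7.29 at 2 weeks with vehicle, and 7.72 and 6.95 with GW2580. The mean of 11 macrophage and monocyte genes (of 12 listed) lay between 7.07 and 7.48 on all arrays, and those of lymphocytes (5 of 8) between 5.74 and 5.96 and of endothelium (5 of 7) between 6.15 and 6.52. These means hide single genes that moved apart, though none was called. With time the macrophage gene Cd68 gave 0.98, where 4 of its list were positive and 7 negative. The endothelial genes Plvap and Tie1 gave -1.20 and 0.86 with time, and 1.54 and -0.52 with the inhibitor. Neutrophil genes (4 of 6) averaged 6.61 and 7.08 at 1 week, 7.20 and 7.65 at 2 weeks with vehicle, and 6.33 and 7.55 with GW2580. Among them S100a8 gave 1.76 with time and Mmp9 -0.58, neither called. The 8 lung epithelial genes averaged 7.59 to 7.69 on the vehicle arrays and 7.37 and 6.74 with GW2580, but they did not move together. With time the surfactant gene Sftpd rose by 0.89 (adjusted p = 0.0251) and the club cell gene Scgb1a1 gave -3.16 (adjusted p = 0.109). With the inhibitor Sftpd fell by 1.12 (adjusted p = 0.0445) and Sftpa1 fell by 1.78 (adjusted p = 0.0489). There 6 of 8 had an unadjusted p under 0.05, all lower, while 1 gene was positive, at 1.97, and not called. The 7 mammary genes averaged 9.39 and 9.15, then 8.78 and 8.93, and 9.14 and 9.08, with the milk protein gene Csn3 falling by 0.95 with time (adjusted p = 0.0294). The part of these features in the results below was not tested. In RNA from a sorted pool, fewer cells that express a gene and less RNA per cell cannot be told apart.

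With time, 1 of the 8 tested genes was called, the INK4 inhibitor Cdkn2d, which was lower at 2 weeks. Over all genes tested, 6.45% were called in that comparison. This share too rests on single arrays: the 844 calls behind it became 0 and 413 without replicate 1 and 2 of the 1-week group, and 115 and 157 without replicate 1 and 2 of the 2-week vehicle group. The cyclins Ccnd1, Ccnd2 and Ccnd3 and the inhibitor Cdkn2c also had lower levels on both 2-week vehicle arrays than on both 1-week arrays, and Rb1 had higher ones, without passing the test. By leading probe set, Cdk4 and Cdk6 differed least, though Cdk6 probe set 1455287_at gave -0.51. With the inhibitor, 0 of the 8 were called by limma, where 0.367% of all genes were called (48 genes). An unadjusted p under 0.05 was reached by 2 of the 8, where 18.0% of all genes reached it. With GW2580 set against 1 week also 0 were called, where 0.512% of all genes were called (67 genes). There 1 of the 8 had an unadjusted p under 0.05, as did 17.0% of all genes. The calls over all genes in these comparisons also rest on single arrays.

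**Figure D1:**
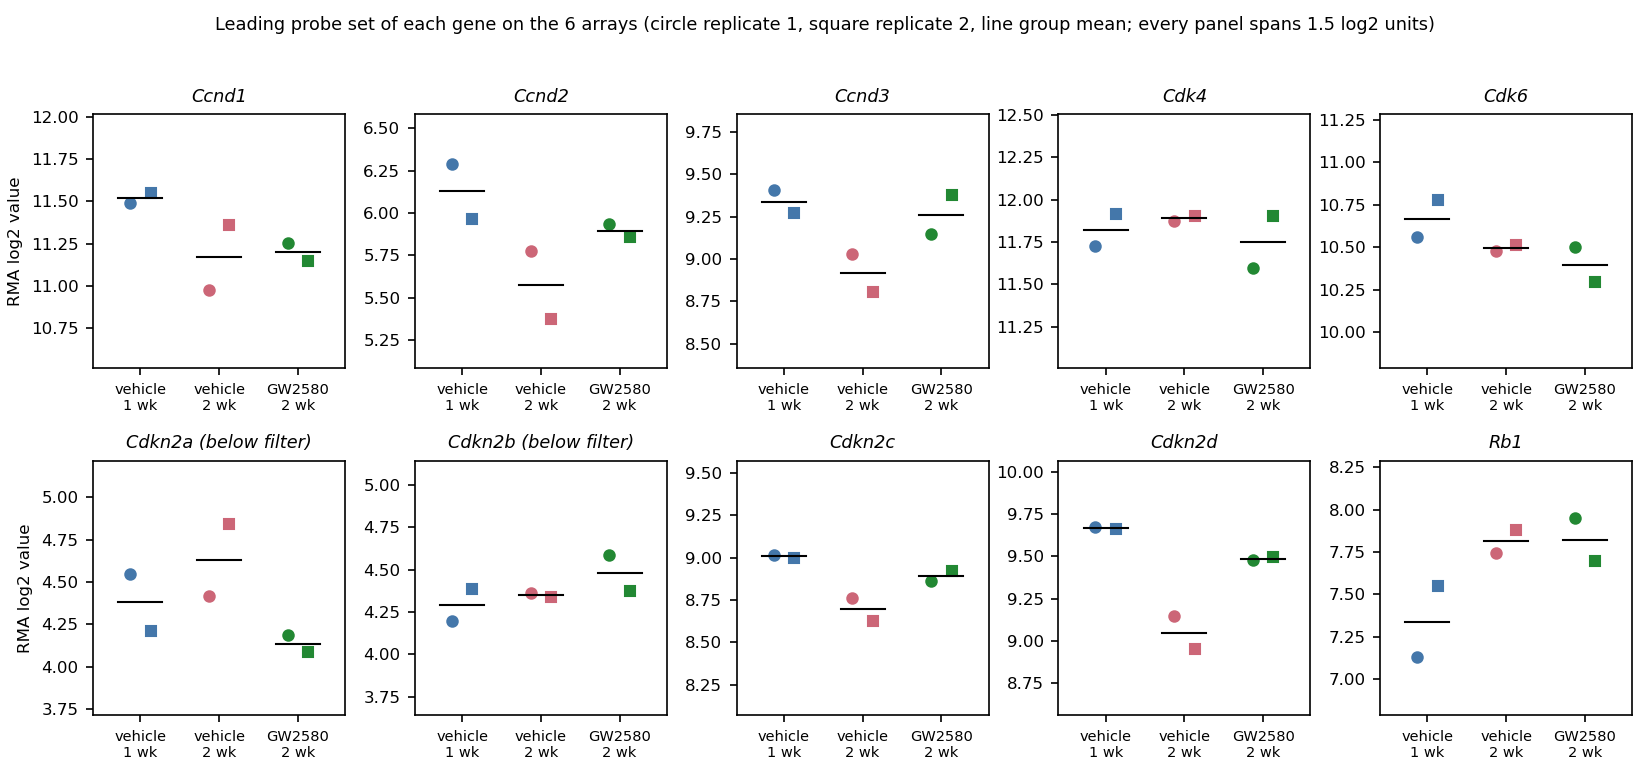
RMA log2 level of the leading probe set of each of the 10 genes on each of the 6 arrays, circles for replicate 1, squares for replicate 2 and a line at the group mean. Every panel spans the same log2 range: the points of Cdkn2d lie at 9.68 and 9.66 at 1 week, 9.15 and 8.95 at 2 weeks with vehicle, and 9.48 and 9.50 with GW2580, while those of Cdk4 overlap in all groups.

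Ccnd1, the gene of cyclin D1, read 11.49 and 11.55 on the 1-week vehicle arrays, 10.98 and 11.36 on the 2-week vehicle arrays and 11.25 and 11.15 with GW2580. Both 1-week arrays were above the other 4, and the GW2580 values lay between the 2-week vehicle values. The difference with time was -0.35 ± 0.15 (SE, 95% interval -0.71 to 0.00, adjusted p = 0.216), and with the inhibitor 0.03 ± 0.15 (-0.32 to 0.39, adjusted p = 0.938). Its second probe set, 1417420_at, showed the same order, with 11.04 and 11.07, then 10.62 and 10.89, and 10.78 and 10.88. On the third, 1417419_at, replicate 2 of the 2-week vehicle group stood apart at 8.37 against 9.19 on replicate 1, with 9.48 and 9.55 at 1 week and 9.31 and 9.03 with GW2580. That low array is the one with the large 3′ to 5′ gap. The difference with time on this probe set was -0.74 ± 0.25 and became -0.33 without that array.

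Ccnd2, the gene of cyclin D2, read 6.29 and 5.96 at 1 week, 5.77 and 5.37 at 2 weeks with vehicle, and 5.94 and 5.86 with GW2580. The 3 groups did not overlap: GW2580 lay between the vehicle groups. The difference was -0.55 ± 0.18 with time (95% interval -0.96 to -0.15, adjusted p = 0.102) and 0.32 ± 0.18 with the inhibitor (-0.08 to 0.73, adjusted p = 0.377). The gene has 7 probe sets, of which 3 passed the filter. The other pair above it, 1455956_x_at and 1434745_at, gave -0.24 and -0.39 with time but -0.16 and -0.04 with the inhibitor, so of these 3 only the leading one was higher with GW2580. The 4 below the filter gave between -0.34 and 0.02 with time.

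Ccnd3, the gene of cyclin D3, read 9.41 and 9.27 at 1 week, 9.03 and 8.80 at 2 weeks with vehicle, and 9.14 and 9.38 with GW2580. The 2-week vehicle arrays were the lowest pair, and the GW2580 and 1-week values overlapped. The difference was -0.42 ± 0.15 with time (95% interval -0.76 to -0.08, adjusted p = 0.129) and 0.35 ± 0.15 with the inhibitor (0.01 to 0.68, adjusted p = 0.267). The other probe sets of Ccnd3 did not follow the leading one. On 1444323_at all arrays lay between 6.59 and 6.73. On 1438805_at the values ran the opposite way, with 4.65 and 4.47 at 1 week, 5.66 and 5.47 at 2 weeks with vehicle, and 4.52 and 4.89 with GW2580.

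Probe set 1438805_at had a mean of 4.94, just under the filter, and so took no part in the test over genes. In a limma fit over all 45037 probe sets that are not controls, it was 1.00 ± 0.16 higher with time (adjusted p = 0.029) and differed by -0.86 ± 0.16 with the inhibitor (adjusted p = 0.069). When each of the 6 arrays was left out in turn, the time difference ran from 0.91 to 1.10 and its adjusted p from 0.0237 to 0.201, and it was called in 2 of the 6 fits, those that leave out a GW2580 array. With the inhibitor its difference ran from -1.05 to -0.67 over the same fits, and whether it was called depended on the array left out. Where in the transcript the probes of this set lie is not analysed here. The direction of Ccnd3 with time therefore depended on the probe set: averaging its 3 probe sets gave 0.18 in place of -0.42.

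**Figure D2:**
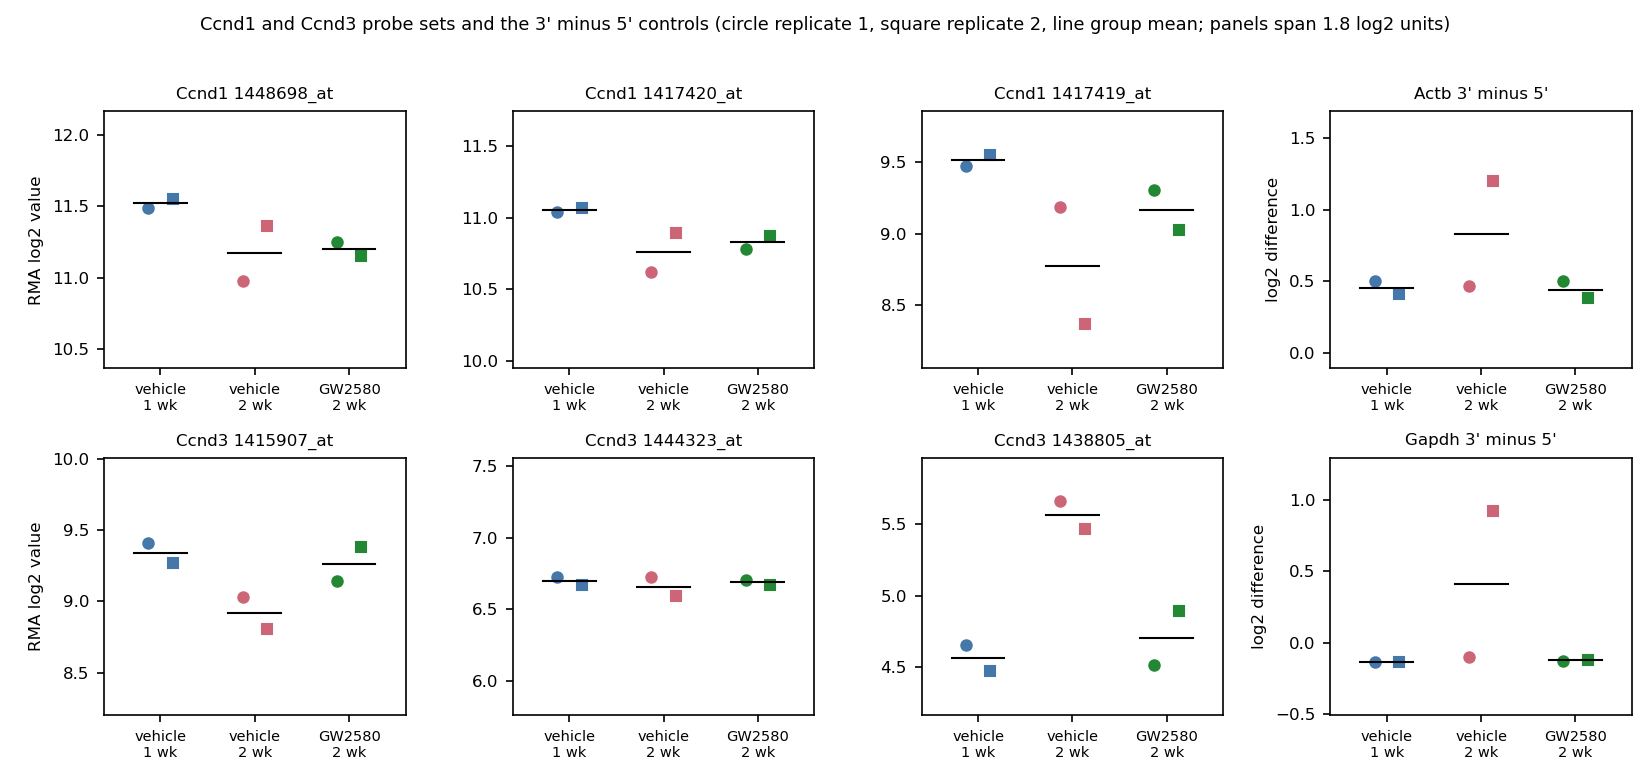
RMA log2 level of the 3 probe sets each of Ccnd1 (top) and Ccnd3 (bottom) on the 6 arrays, and at the right the 3′ minus 5′ log2 difference of Actb and Gapdh, with circles for replicate 1, squares for replicate 2 and lines at group means. Ccnd3 probe set 1438805_at is highest in the 2-week vehicle group, at 5.66 and 5.47, where the leading set is lowest, and Ccnd1 probe set 1417419_at is lowest, at 8.37, on the array with the 1.20 gap of Actb.

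Of the kinases, Cdk4 read 11.73 and 11.91 at 1 week, 11.87 and 11.91 at 2 weeks with vehicle, and 11.60 and 11.90 with GW2580. All 3 groups overlapped. The difference was 0.07 ± 0.15 with time (95% interval -0.27 to 0.41, adjusted p = 0.841) and -0.14 ± 0.15 with the inhibitor (-0.48 to 0.20, adjusted p = 0.659). Its other probe sets gave 0.001 (1422439_a_at) and 0.16 (1422440_at) with time. Myc, which encodes a factor known to bind the E-box and is no member of the set, rose with time from 12.00 and 12.56 to 13.16 and 13.36, by 0.98 ± 0.21 (adjusted p = 0.0383), and read 12.46 and 12.83 with GW2580. Whether this probe set reads only the endogenous gene, and any link of Myc to Cdk4, was not tested. Myc was named here after its values were seen. Its call, like every call with time, was lost without replicate 1 of the 1-week group.

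Cdk6 read 10.56 and 10.78 at 1 week, 10.48 and 10.51 at 2 weeks with vehicle, and 10.50 and 10.29 with GW2580. The 1-week arrays were the highest pair, and the 2-week groups overlapped. The difference with time was -0.17 ± 0.14 (95% interval -0.49 to 0.15, adjusted p = 0.517) and with the inhibitor -0.10 ± 0.14 (-0.42 to 0.22, adjusted p = 0.751). A second probe set, 1455287_at, read 10.46 and 10.84, then 10.34 and 9.94, and 10.42 and 10.41, a difference of -0.51 ± 0.18 with time and 0.28 ± 0.18 with the inhibitor. The third, 1460291_at, spread by more than its group differences, with 6.01 and 4.80 on the 2-week vehicle arrays alone. On both of these the lowest array was again replicate 2 of the 2-week vehicle group. By leading probe set that array was also the lowest for Ccnd2 (5.37), Ccnd3 (8.80), Cdkn2c (8.62) and Cdkn2d (8.95). It was not the lowest for Ccnd1, Cdk4, Cdk6 and Rb1. Without it the differences of Ccnd2, Ccnd3, Cdkn2c and Cdkn2d with time were -0.35, -0.31, -0.24 and -0.52. The part of its large 3′ to 5′ gap in these levels was not tested.

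Cdkn2d, whose product binds CDK4 and CDK6 and is the INK4 protein best known to vary through the cell cycle, read 9.68 and 9.66 at 1 week, 9.15 and 8.95 at 2 weeks with vehicle, and 9.48 and 9.50 with GW2580. The 3 groups did not overlap, and GW2580 lay between the vehicle groups. From 1 to 2 weeks it fell from 9.67 ± 0.01 to 9.05 ± 0.14 (SD, n = 2), by 0.62 ± 0.13 (SE, 95% interval -0.91 to -0.33), which is 1.54-fold lower at an adjusted p of 0.0348 in limma. By p it ranked 457th of the 13090 genes. The GW2580 mean was 9.49 ± 0.01 (SD, n = 2), 0.44 ± 0.13 above 2-week vehicle (0.14 to 0.73, unadjusted p = 0.0087, adjusted p = 0.141) and -0.18 ± 0.13 from 1 week (-0.47 to 0.11, adjusted p = 0.517).

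The call of Cdkn2d rests on every array it compares. Without replicate 1 or replicate 2 of the 1-week group its adjusted p was 0.241 and 0.0959, and without replicate 1 or 2 of the 2-week vehicle group 0.104 and 0.155, with differences between -0.72 and -0.52. Over all probe sets the adjusted p was 0.0501. The gene has 1 probe set on the array. The 3 tested genes whose values across the 6 arrays were most like it, by the root-mean-square difference of centred log2 values, were Katnal2 (0.0455), Erg28 (0.063) and Fbf1 (0.0656).

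Cdkn2c, whose INK4 product binds CDK6 in preference to CDK4, read 9.017 and 8.997 at 1 week, 8.76 and 8.62 at 2 weeks with vehicle, and 8.86 and 8.92 with GW2580. The order of the groups was that of Cdkn2d, with no overlap. The difference was -0.31 ± 0.12 with time (95% interval -0.60 to -0.03, adjusted p = 0.171), 0.20 ± 0.12 with the inhibitor (-0.08 to 0.48, adjusted p = 0.431) and -0.11 ± 0.12 from 1 week to GW2580 (adjusted p = 0.696).

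Cdkn2a and Cdkn2b are neighbouring tumour suppressor genes, and Cdkn2a encodes both an INK4 protein and, from another reading frame, the ARF protein that restrains MDM2. Cdkn2a read 4.55 and 4.21 at 1 week, 4.42 and 4.84 at 2 weeks with vehicle, and 4.19 and 4.09 with GW2580. Cdkn2b read between 4.20 and 4.59 on the 6 arrays. Both lay below the filter on every array, so they took no part in the test over genes, and a low level and a weakly binding probe set cannot be told apart here. In the fit over all probe sets Cdkn2a gave 0.25 ± 0.18 with time and -0.49 ± 0.18 with the inhibitor, and Cdkn2b gave 0.06 and 0.13.

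Rb1, which encodes the retinoblastoma protein, read 7.13 and 7.55 at 1 week, 7.75 and 7.88 at 2 weeks with vehicle, and 7.95 and 7.70 with GW2580. Both 2-week groups were above both 1-week arrays and overlapped each other. The difference was 0.47 ± 0.17 with time (95% interval 0.08 to 0.87, adjusted p = 0.146), 0.01 ± 0.17 with the inhibitor (-0.39 to 0.41, adjusted p = 0.984) and 0.48 ± 0.17 from 1 week to GW2580 (0.09 to 0.88, adjusted p = 0.214). Its other probe set, 1444400_at, read between 3.10 and 3.40, below the filter.

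**Figure D3:**
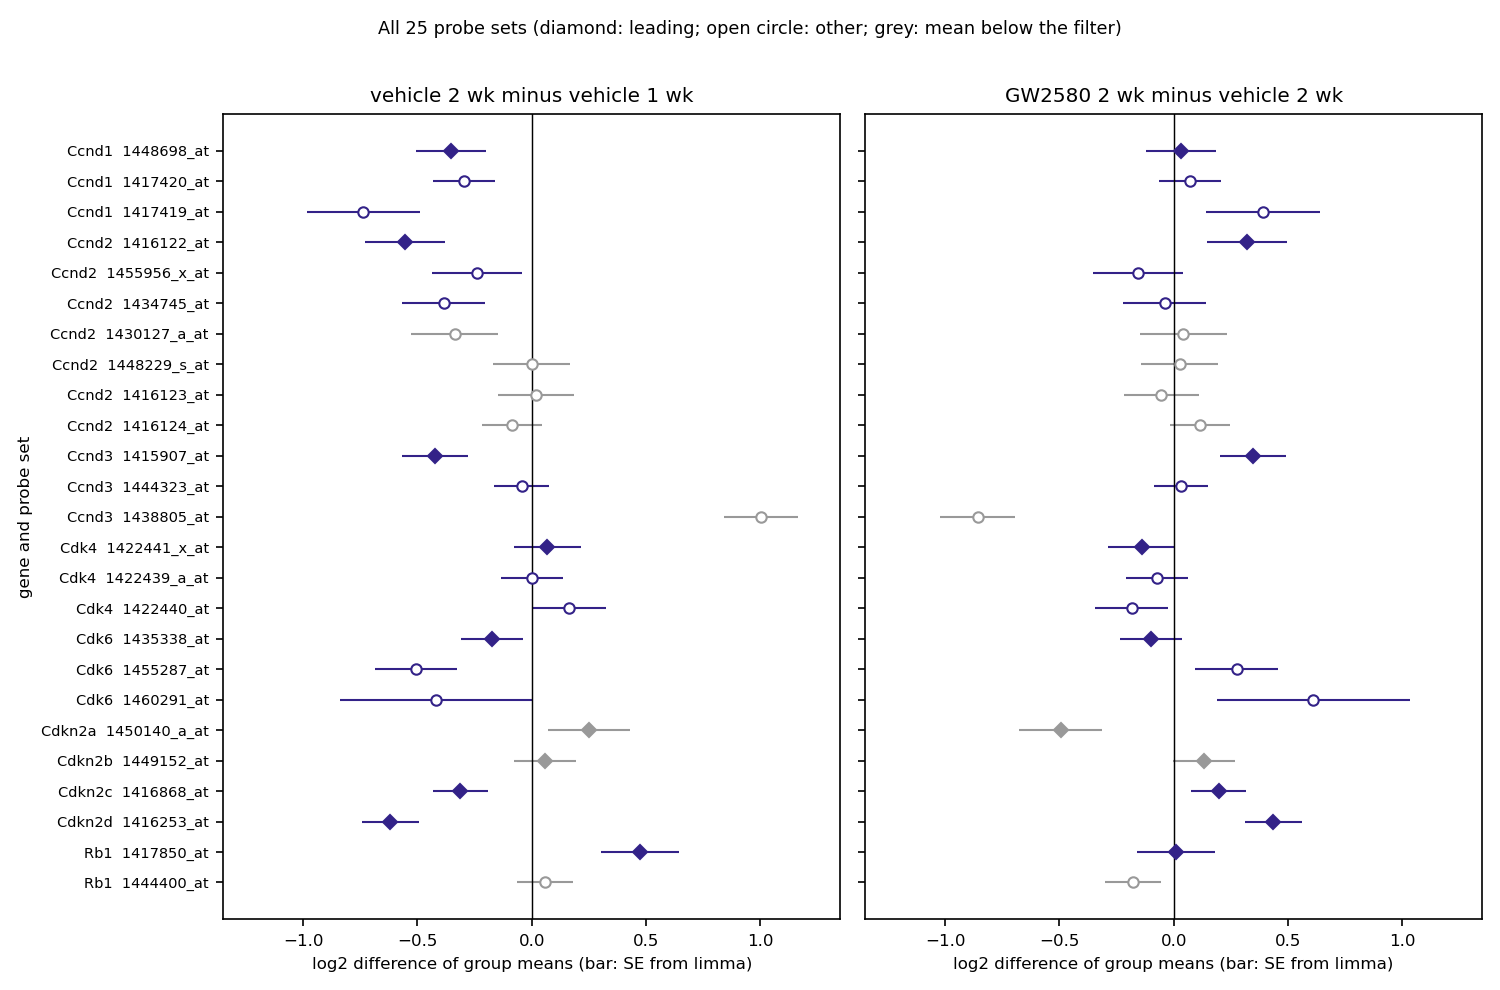
Log2 difference of each of the 25 probe sets with time (left) and with the inhibitor (right), with limma SE bars, diamonds for leading probe sets, open circles for the others and grey for means below the filter. With time most lie left of 0, Rb1 at 0.47 and Ccnd3 probe set 1438805_at at 1.00 lie to the right.

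Across the 8 tested genes, the median difference with time was -0.33, against 0.02 over all genes tested, and the median size was 0.39 against 0.177. Of the 8, 6 were negative and 2 positive. An unadjusted p under 0.05 was reached by 5, of which 4 were lower and 1 higher, where 23.6% of all genes reached it. In 7 of the 8 the groups did not overlap, 6 lower and 1 higher, where 56.7% of all genes did not overlap. With the inhibitor the median was 0.12 against -0.05 over all genes, and 6 of 8 were positive (41.7% of all genes). Of the 8, 2 reached an unadjusted p under 0.05 (18.0% of all genes) and 4 did not overlap, all higher (49.8% of all genes). From 1 week to GW2580 the median was -0.15 against -0.02 over all genes, 7 of 8 were negative, 1 (Rb1) reached an unadjusted p under 0.05 (17.0%) and 6 did not overlap, 5 lower and 1 higher (46.7%).

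The genes that act around this module were read from 7 lists of 54 genes, of which 49 were tested. With time 3 were called higher, 10 lower and 36 not called, where 6.45% of all genes were called. With the inhibitor and from 1 week to GW2580 limma called 0 of 49. An unadjusted p under 0.05 was reached there by 8 and 28 of them, where 18.0% and 17.0% of all genes reached it. Without replicate 1 of the 1-week group limma called 0 of the 49 with time, as it did of all 13090 genes, while 20 of the 49 and 1630 of the 13090 had an unadjusted p under 0.05. Of the 13 calls, 2 were kept without 1-week replicate 2, 1 without 2-week vehicle replicate 1 and 2 without 2-week vehicle replicate 2, Cdc6 among them each time. Median differences are given below as a description of each list.

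Of 12 other genes of the pocket protein (retinoblastoma), E2F and DP families, 1 was called higher and 2 lower with time, and the median was -0.25. E2f7, an E2F that represses, read 8.36 and 8.40 at 1 week, 7.20 and 7.28 at 2 weeks with vehicle and 7.77 and 7.29 with GW2580. Its fall of 1.14 ± 0.17 with time had an adjusted p of 0.016. E2f1, an activator, fell by 0.54 ± 0.13 (adjusted p = 0.0486), though its probe set 1417878_at gave -0.26, and Tfdp2, a DP partner of E2F, rose by 0.79 ± 0.16 (adjusted p = 0.0338). The list's medians were 0.05 with the inhibitor and -0.29 from 1 week to GW2580, where E2f7 differed by -0.85 (adjusted p = 0.0742) and E2f8 by -0.70 (adjusted p = 0.0886). With the inhibitor the smallest p belonged to Tfdp2, at -0.59 (adjusted p = 0.128), and E2f2, at 0.84 (adjusted p = 0.219). All 3 calls with time were lost without any 1 of the 4 compared arrays, with adjusted p from 0.0539 to 0.156 for E2f7, from 0.0505 to 0.252 for Tfdp2 and from 0.082 to 0.317 for E2f1. That of E2f1 was also lost under 6 of the 7 other alternatives (adjusted p from 0.0502 to 0.11) and was kept with the replicate block.

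The cyclin E/A and CDK2 module takes over from CDK4/6 at the start of DNA replication, and 2 of its 5 genes were called lower with time, with a median of -0.49. Ccna2, the gene of cyclin A2, read 11.14 and 10.78 at 1 week, 9.78 and 9.75 at 2 weeks with vehicle, and 10.36 and 9.98 with GW2580. That is a fall of 1.20 ± 0.18 with time (adjusted p = 0.0157). Ccne2, the gene of cyclin E2, fell by 1.16 ± 0.25 (adjusted p = 0.0379). Ccne1, Cdk2 and Cdc25a gave -0.49, -0.37 and -0.31 and were not called. With GW2580 against 1 week all 5 were negative, where 45.8% of all genes were positive. Their median was -0.57 and the smallest adjusted p 0.0865, for Ccna2. The list's calls with time were 1 without 1-week replicate 2 and 0 without any other of the 4 compared arrays. With the inhibitor Ccna2 gave 0.41 (adjusted p = 0.274).

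Among 13 tested genes of 15 known as targets of the RB-E2F pair, 5 were called lower with time, and all 13 were negative, with a median of -0.57. Over all genes tested, 52.9% were positive with time. Cdc6, which loads the replicative helicase, read 8.28 and 7.97 at 1 week, 6.51 and 6.91 at 2 weeks with vehicle, and 7.26 and 7.14 with GW2580. It fell by 1.42 ± 0.17 (2.67-fold lower, adjusted p = 0.0102). Rrm2, a subunit of ribonucleotide reductase, fell by 0.79 ± 0.17 (adjusted p = 0.036), Cdc45, a helicase component, by 0.77 ± 0.16 (adjusted p = 0.0367) and Mybl2, a transcription factor of the cell cycle, by 0.69 ± 0.16 (adjusted p = 0.0416). The other probe set of Cdc45 and of Mybl2 gave -0.01 and -0.09. The fifth call was Pcna, the sliding clamp of replication, at -0.58 (adjusted p = 0.0399). The list had 0 calls without 1-week replicate 1, 1 without 1-week replicate 2 or 2-week vehicle replicate 1, and 2 without 2-week vehicle replicate 2.

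These target genes were also all negative from 1 week to GW2580, with a median of -0.55, where 45.8% of all genes were positive. All 13 had an unadjusted p under 0.05 (17.0% of all genes), but the smallest adjusted p was 0.0703, for Cdc6. With the inhibitor against 2-week vehicle the median was -0.01, with 6 positive and 7 negative, and the smallest p belonged to Cdc6 at 0.49 (adjusted p = 0.204) and Cdt1 at -0.32 (adjusted p = 0.218). The 2-week groups, with vehicle and with GW2580, both lay below 1 week on this list, as did the GW2580 mean of 7 of the 8 members. By leading probe set, the members Cdkn2d, Cdkn2c, Ccnd2, Ccnd3 and Cdk4 with GW2580 had means closer to 1 week than to 2-week vehicle, and Ccnd1, Cdk6 and Rb1 closer to 2-week vehicle. For Cdk4 the GW2580 mean lay below both vehicle means and all groups overlapped. The other Ccnd2 probe sets above the filter lay closer to 2-week vehicle, and Cdk6 1455287_at and Ccnd1 1417419_at closer to 1 week. Whether the lists and the members differ in this was not tested.

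**Figure D4:**
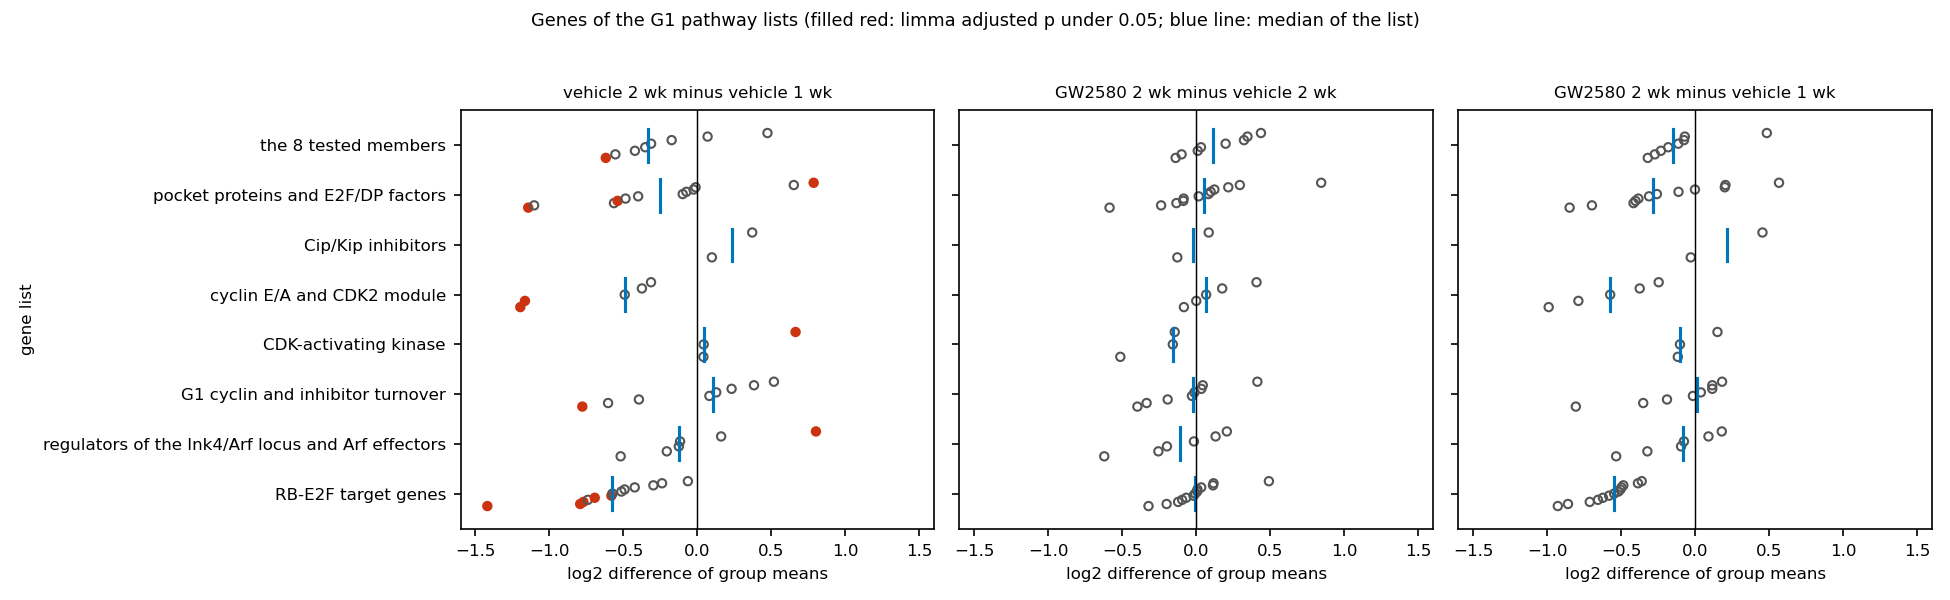
Log2 difference of each of the 8 tested members and of each tested gene of the 7 pathway lists in the 3 comparisons, with filled red points for limma calls and a blue line at the median of a list. The 13 RB-E2F target genes all lie below 0 with time (median -0.57) and from 1 week to GW2580 (median -0.55), and on both sides of 0 with the inhibitor (median -0.01).

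Cip/Kip inhibitors, which bind cyclin-CDK pairs and can hold CDK2 inactive, showed no call. Cdkn1b gave 0.37 ± 0.18 with time (adjusted p = 0.271) and Cdkn1a 0.10 (adjusted p = 0.753), and Cdkn1c was below the filter. The pair gave 0.08 and -0.13 with the inhibitor. In the CDK-activating kinase, which phosphorylates CDK4 and CDK6, the assembly factor Mnat1 rose by 0.66 ± 0.16 with time (adjusted p = 0.0457), while Cdk7 and Ccnh both gave 0.04. With the inhibitor all 3 were negative, Mnat1 at -0.51 (adjusted p = 0.152), where 41.7% of all genes were positive.

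Among 8 genes for turnover of G1 cyclins and inhibitors, 1 was called lower with time: Skp2, the F-box protein that directs the Cdkn1b product to destruction, which fell by 0.78 ± 0.17 (adjusted p = 0.0374). Of its 5 other probe sets above the filter, 4 gave between -0.84 and -0.64, and 1425072_at gave -0.09 with time. Fbxo4, which directs cyclin D1 to destruction, gave -0.40 with the inhibitor (adjusted p = 0.26). Of 6 tested regulators of the Ink4/Arf locus and effectors of ARF, Cbx7, a Polycomb protein that represses the locus, rose by 0.80 ± 0.17 with time (adjusted p = 0.0369), with 0.13 on its other probe set above the filter. Ezh2, the Polycomb methyltransferase, gave -0.52 (adjusted p = 0.0535). With the inhibitor Cbx7 gave -0.62 (adjusted p = 0.13). The calls of Mnat1 and Cbx7 were lost without any 1 of the 4 compared arrays, with adjusted p from 0.085 to 0.31 for Mnat1 and from 0.0658 to 0.272 for Cbx7, as was that of Skp2, from 0.104 to 0.248.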

How the data were processed

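Tumour cell RNA from 6 samples was hybridised to Affymetrix mouse arrays. The deposited table holds log2 values of 45101 probe sets, made by the authors with RMA per the submitters' processing notes, which name no version. RMA equalises the distribution of all arrays, so it hides any change common to most genes. The number of arrays, not a read depth, limits precision.

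Without 64 controls there were 45037 probe sets, 34945 with 1 symbol in the annotation, 932 with several and 9160 with none there. The highest-mean probe set stood for each of 18193 genes, and those under the 40th percentile (4.97) were dropped. By gene ID, all 10 members matched RefSeq, with 0 symbols changed.

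limma 3.58.1 in R 4.3.3 (lmFit with 3 group means, eBayes) gave every test, with 3 residual and 4.97 prior degrees of freedom and Benjamini-Hochberg adjustment. The procedure was tested on simulated data with independent normal noise. Those data hold none of the array features described above, so they do not test the calls here. No pairing was used, because the labels number the replicates but give no shared animal, litter or day. Same-numbered replicates deviated together in 1 of 3 pairs of groups.

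Members and lists were chosen with earlier results of these data known. The text names the 10 members, up to 4 called genes per list by size or 2 by smallest p, and 3 genes most like a called member. Pcna, Cdk7, Ccne1, Cdk2, Cdc25a, Myc and the single cell type markers were named outside this rule, after their values were seen. Alternatives were no filter, all probe sets, their mean, the 4 compared arrays, a replicate block, a common 75th percentile, eBayes with trend and robust, and leaving out each array.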

Additional observations from a re-analysis of the deposited data

How the results depend on the processing

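With time, 1 member was called. Counts of members here use the leading probe set, or the mean of probe sets where stated. The count was 0 over all probe sets. It was 2 with the mean of a gene's probe sets (Cdkn2d, and Ccnd1 at -0.46 with an adjusted p of 0.0482 in limma). Ccnd2 fell below the filter in that alternative and was not tested. The count was 1 with no filter, the 4 compared arrays, a common 75th percentile or trend and robust, and it depended on which array was left out. With the inhibitor and from 1 week to GW2580 limma called 0 members under every alternative run. With the replicate block it called 2 with time, Cdkn2d (adjusted p = 0.0297) and Ccnd2 (adjusted p = 0.0463). Replicate numbers were not taken to pair the arrays, because the labels give no shared animal, litter or day. Over genes, the replicate 1 minus replicate 2 differences correlated at 0.0022 (1-week with 2-week vehicle), 0.292 (1-week with GW2580) and 0.0094 (2-week vehicle with GW2580). The block moved the calls over all genes from 844 to 1223 with time, from 48 to 154 with the inhibitor and from 67 to 182 from 1 week to GW2580. With a common 75th percentile, 17 of 72 calls with the inhibitor were higher, against 9 of 48.

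Signs turned in values that were not called. With the mean of probe sets, Ccnd3 gave 0.18 with time, -0.16 with the inhibitor and 0.020 from 1 week to GW2580, Cdk6 gave 0.26 and Rb1 -0.084 with the inhibitor, and Cdkn1a gave 0.11 from 1 week to GW2580. For Ccnd3, Cdk6 and Rb1 the average takes in probe sets of opposite direction. For Cdkn1a the cause was not tested. With each array left out in turn, differences with time ran from -0.024 to 0.16 for Cdk4 and from -0.029 to 0.23 for Cdkn1a. With the inhibitor they ran from -0.16 to 0.22 for Ccnd1, -0.29 to 0.014 for Cdk4, -0.20 to 0.0042 for Cdk6, -0.12 to 0.14 for Rb1, -0.053 to 0.22 for Cdkn1b and -0.15 to 0.50 for Ccne2. From 1 week to GW2580 they ran from -0.19 to 0.042 for Ccnd3, -0.22 to 0.084 for Cdk4, -0.16 to 0.097 for Cdkn1a and -0.022 to 0.32 for Mnat1.

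Of the members' values under alternatives, 287 kept direction and side of the threshold, mostly as not called, 5 lost the call of Cdkn2d, 2 gained a call and 15 turned sign. Of the named pathway genes' values 473 were kept, 61 lost a call, 4 gained it and 8 turned sign. Over all probe sets 4 of the 13 pathway calls with time were kept, and with the mean of probe sets 9, Cbx7 moving from 0.80 to 0.26. With 2 arrays a group the intervals were wide, for Cdk4 with time -0.27 to 0.41, and low signal limits Cdkn2a and Cdkn2b.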
